A study of Mus musculus with 2 samples.

Results

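Apolipoprotein genes were examined in the livers of mice with injured kidneys. They are Apoa1, Apoa2, Apoa4, Apoa5, Apob, Apoc1, Apoc2, Apoc3, Apoe and Apom, 10 of 18193 genes that the array names by a probe set with a single gene. A probe set is a group of short oligonucleotides that together read 1 transcript, and these genes had 16 of them. Livers came from 8-week-old male wild-type C57BL/6 mice in both groups. In the renal ischaemia-reperfusion (RIR) group, both kidneys had 30 minutes of warm ischaemia followed by reperfusion, and the sham group went through surgery without it. Tissue was collected 24 hours later, 100 mg of frozen liver from 3 mice was pooled for each group, and each pool was read on 1 Affymetrix array. A single pool per group gives no spread between mice, so there is no test, and every difference describes these 2 pools. With 2 arrays, likeness of pattern between genes cannot be measured either. In such tissue samples, fewer cells of a type and less RNA per cell cannot be told apart.

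Apolipoproteins are the protein part of lipoproteins, the particles that carry triglyceride and cholesterol in plasma. Hepatocytes make most of them, and the intestine makes a smaller set. Apob builds the frame of very low density lipoprotein (VLDL), and Apoa1 and Apoa2 are the main proteins of high density lipoprotein (HDL). Others ride on the particles and set how fast lipoprotein lipase breaks down their triglyceride, or how receptors take the remnants up.

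Of the 10 apolipoproteins, 3 had a signal at least 2-fold higher in the RIR pool, namely Apoa4, Apoc2 and Apoa5, and none was at least 2-fold lower. Over all 13117 genes measured, the same thresholds were passed by 8.71% on the higher side and 9.59% on the lower side. The median log2 difference, RIR minus sham, was 0.31 over the 10 apolipoproteins and -0.01 over all genes, whose quartiles were -0.45 and 0.42. Differences were taken on the scale of log2(signal + 16), and a gene was read by its probe set with the highest mean log2 signal. At a 1.5-fold threshold the count of higher apolipoproteins was also 3, against 18.7% of all genes. The median of the 10 depended on the scaling of the arrays, at 0.11 with a loess trend on signal removed, 0.03 with bacterial hybridisation controls as the zero, which lowers every difference by 0.28, and -0.16 by quantile normalization. The split over all genes depended on it too, since genes on the higher side made up 47.6% of those past 2-fold as deposited and 27.3% with the hybridisation controls as the zero.

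Both arrays had nearly the same median signal, 254.1 in the RIR pool and 257.0 in the sham pool, and the authors had scaled them to a common trimmed mean. Control probe sets at the 3′ end over those at the 5′ end gave a ratio of 1.24 in the RIR pool and 1.38 in the sham pool for beta-actin. For Gapdh it was 0.721 in the RIR pool and 0.744 in the sham pool. Of 11 hepatocyte markers with a probe set, all 11 were at or above the array median in both pools. All 16 apolipoprotein probe sets were also at or above it in both pools. Probe sets of the same gene disagreed by an SD of 0.72 in log2 difference over 5028 genes, which is the yardstick used below for differences between probe sets and genes, though it is no replicate error. It is the SD of single probe sets about the mean of their gene, so the difference between a pair of them spreads wider.

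**Figure D1:**
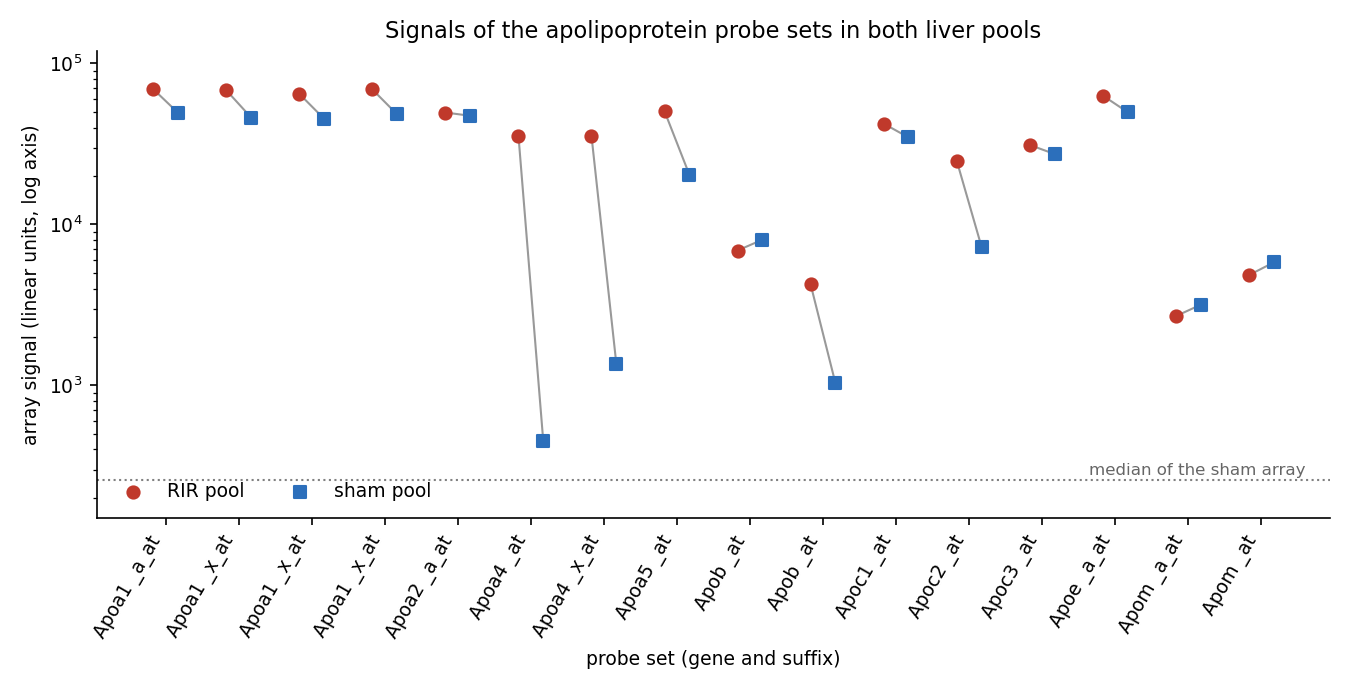
Array signal (vertical log axis, linear units) of the 16 apolipoprotein probe sets, with a red circle for the RIR pool and a blue square for the sham pool joined by a line, and the median of the sham array dotted. The Apoa4 probe sets stand at 35508 and 35685 in the RIR pool and at 1365 and 450.0 in the sham pool, whereas the Apoa1 probe sets lie near the top in both pools.

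Apoa4 had the largest difference of the family. Its protein travels on triglyceride-rich particles from the intestine and on HDL, and mouse liver also makes it. Probe set 1436504_x_at had a signal of 35508 in the RIR pool, against 1365 in the sham pool, which is 25.7-fold higher (log2 difference 4.68). Probe set 1417761_at had 35685 in the RIR pool, against 450.0 in the sham pool, which is 76.6-fold higher (log2 difference 6.26). Both probe sets were thus past 2-fold, with log2 differences further apart than the SD of 0.72 of probe sets about the mean of their gene. Probes of a set with the suffix _x_at may also bind other, similar transcripts, and 1417761_at does not carry it. By 1436504_x_at, Apoa4 ranked 17 from the top among the 13117 genes by measured difference. In all 12 other settings its difference stayed between 4.40 and 6.26.

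Apoc2 and Apoa5 act on the same step, the breakdown of plasma triglyceride. Apoc2 is the cofactor that lipoprotein lipase needs, and Apoa5 promotes the action of the lipase. Apoc2 (1418069_at) had a signal of 24921 in the RIR pool, against 7261 in the sham pool, which is 3.43-fold higher (log2 difference 1.78). Apoa5 (1417610_at) had 50524 in the RIR pool, against 20383 in the sham pool, which is 2.48-fold higher (log2 difference 1.31). Each gene has a single probe set, of the kind without a cross-hybridising suffix. The difference of Apoc2 was at least 1.49 in every setting tried, whereas that of Apoa5 was 0.94 by quantile normalization, just under 2-fold, and at least 1.02 in the others.

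Apoc3 and Apoc1, which work against triglyceride clearance, differed little. Apoc3 inhibits lipoprotein lipase and had a signal of 31176 in the RIR pool, against 27390.3 in the sham pool (log2 difference 0.19). Apoc1 hinders the uptake of particles by receptors and had 42303 in the RIR pool, against 34739 in the sham pool (0.28). The RIR-to-sham ratio of Apoc2 was 3.01 times that of Apoc3 and 2.81 times that of Apoc1, comparisons that a common rescaling of an array does not alter. The signs of Apoc3 and Apoc1 themselves do depend on scaling. By quantile normalization both were at -0.16, and with the hybridisation controls as the zero Apoc3 was at -0.10 and Apoc1 at -0.0006.

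Apoa4, Apoa5 and Apoc2 are known targets in mouse liver of CREB3L3, a membrane-bound transcription factor of the endoplasmic reticulum, and of nuclear receptors such as HNF4A. Both factors are read below among regulators of apolipoprotein genes in general, not of these genes alone. Their part in the differences was not tested. To show the sequence before the start sites of the genes past 2-fold, with Apoa1 beside them as the first gene of the Apoa4 cluster, RefSeq windows of the build GRCm38.p6 are printed 5′ to 3′ along each gene. The window of Apoa4 is chr9:46240594-46240843 on the plus strand, that of Apoa5 is chr9:46268358-46268607 on the plus strand, and that of Apoa1 is chr9:46228380-46228629 on the plus strand. The window of Apoc2 is chr7:19677942-19678083 on the minus strand, shortened to 142 bases because the next 108 lie within Apoc4. Capitals mark matches to any of 6 motifs.
Apoa4: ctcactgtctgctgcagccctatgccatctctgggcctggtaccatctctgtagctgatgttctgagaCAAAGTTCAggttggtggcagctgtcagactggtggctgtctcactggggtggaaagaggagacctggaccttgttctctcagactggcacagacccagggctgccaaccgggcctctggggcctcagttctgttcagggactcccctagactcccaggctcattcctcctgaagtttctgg
Apoa5: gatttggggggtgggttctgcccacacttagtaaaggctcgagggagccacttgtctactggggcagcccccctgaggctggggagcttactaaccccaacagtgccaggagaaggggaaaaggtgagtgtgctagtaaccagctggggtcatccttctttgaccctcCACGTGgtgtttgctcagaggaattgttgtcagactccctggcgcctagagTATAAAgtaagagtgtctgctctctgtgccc
Apoc2: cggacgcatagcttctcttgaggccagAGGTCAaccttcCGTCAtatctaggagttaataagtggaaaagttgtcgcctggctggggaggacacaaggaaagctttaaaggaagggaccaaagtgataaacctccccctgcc
Apoa1: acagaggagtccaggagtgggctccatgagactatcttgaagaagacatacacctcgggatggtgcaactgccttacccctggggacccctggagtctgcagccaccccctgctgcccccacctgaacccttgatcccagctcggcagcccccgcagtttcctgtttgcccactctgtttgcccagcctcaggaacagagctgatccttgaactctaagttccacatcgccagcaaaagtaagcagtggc

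The motifs were searched on both strands in the 250 bases before each start. Of the 10 apolipoproteins, 8 had a window, and Apoc1 and Apoc3 had none. Apoa2, Apoa5 and Apoe had more than 1 window each. An apolipoprotein counts as holding a motif if any of its windows does, whereas the percentages count single windows, so these are unlike shares. In Apoa4 the capitals are a match to CAAAGTNCA, a motif that HNF4A is known to bind, which 1 of the 8 apolipoproteins and 1.19% of all 32851 windows hold. In Apoa5 they are the E-box CACGTG, held by 1 of 8 and by 6.02% of all windows, and the TATA box TATAAA, held by 4 of 8 and by 12.4%. In Apoc2 they are AGGTCA, a core motif of nuclear receptors held by 2 of 8 and 14.0% of windows, and TGACG, read on the other strand, part of the cyclic AMP response element, held by 2 of 8 and 17.8%. The STAT palindrome TTCNNNGAA is in none of the 8 apolipoproteins and in 7.02% of all windows, and the printed window of Apoa1 holds none of the 6 motifs. No motif printed in capitals overlaps another. A match describes these letters, not a bound site, and sites that vary from these letters were not counted.

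Among the proteins of HDL, Apoa1 had a higher deposited signal in the RIR pool by all 4 of its probe sets, a direction that 2 of them lost by quantile normalization. Its protein takes up cholesterol at the cell surface and activates the enzyme that esterifies it. Its probe set 1419232_a_at had a signal of 69348 in the RIR pool, against 49359 in the sham pool, and its 3 probe sets with the suffix _x_at had 64804 to 69021 in the RIR pool, against 45311 to 48259 in the sham pool. The log2 differences were 0.49 by the first and 0.52 to 0.56 by the others, so the 4 agreed closely, with folds of 1.40 to 1.48. Apoa2 (1417950_a_at) had 49604 in the RIR pool, against 47324 in the sham pool (log2 difference 0.07). Apom, which carries sphingosine 1-phosphate on HDL, was lower by both probe sets, within 2-fold and with the same sign in all 12 other settings. Its 1419096_at had 4843 in the RIR pool, against 5808 in the sham pool (-0.26), and its 1419095_a_at had 2694 in the RIR pool, against 3170 in the sham pool (-0.23).

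Apoe, the ligand by which remnant particles bind receptors of hepatocytes, had a signal of 63197 in the RIR pool, against 49864 in the sham pool, by a single probe set (log2 difference 0.34). Apob, whose protein forms the frame of VLDL, was read by 2 probe sets that disagreed. The brighter, 1455593_at, had 6889 in the RIR pool, against 8043 in the sham pool (-0.22). The other, 1457554_at, had 4243 in the RIR pool, against 1032 in the sham pool, which is 4.06-fold higher (2.02). Neither carries a cross-hybridising suffix, and the mean of the pair was 0.90, so no direction is given for Apob. Counted by probe set, 5 of the 16 were at least 2-fold higher, against 10.4% of all 21003 probe sets past the filter, and none was at least 2-fold lower, against 10.8%.

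In the order of their differences, Apoa4 exceeded Apoc2 by 2.91, Apoc2 exceeded Apoa5 by 0.47 and Apoa5 exceeded Apoa1 by 0.82 on the log2 scale. With Apob read by its brighter probe set, the 7 genes from Apoa1 down to Apom lay between 0.49 and -0.26. No gap between neighbours was over 0.29, which was that of Apoa2 and Apob. The place of Apob is not settled, since with its probe sets averaged it was at 0.90, above Apoa1. Apoc2 and Apoa5 differed by less than 0.72, the SD of single probe sets about the mean of their gene, as did each pair of neighbours from Apoa1 down. The difference of a pair spreads wider than that SD, so the 0.82 between Apoa5 and Apoa1 does not clearly exceed it.

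Apoa1, Apoa2, Apoc1, Apoc3 and Apoe had very bright signals in both pools, and Apoa4 and Apoa5 in the RIR pool. Among 45037 probe sets, Apoa5 ranked 38 by brightness in the RIR pool and 142 in the sham pool. The Apoa4 probe sets ranked 79 and 82 in the RIR pool, and 15296 and 4479 in the sham pool. All 4 probe sets of Apoa1 and that of Apoe were among the brightest 20 of the array in both pools. The highest signal of any probe set was 85966 in the RIR pool and 55427 in the sham pool, and Apoa1 by 1419232_a_at reached 80.7% of it in the RIR pool and 89.1% in the sham pool. Among the 100 brightest probe sets, 77 were higher in the RIR pool, with a median log2 difference of 0.37 and quartiles of 0.03 and 0.57. Of these 100, 9 belong to Apoa1, Apoa2, Apoa5, Apoc1, Apoc3 and Apoe. The differences of Apoa1, Apoa2, Apoc1, Apoc3 and Apoe, from 0.07 to 0.49, lay within those quartiles. By quantile normalization, the log2 difference was -0.05 for Apoa1, -0.21 for Apoe and -0.44 for Apoa2, so no direction is given for these genes, Apoc1 and Apoc3. The sources used here do not say whether any of these probe sets was saturated, those of Apoa4 and Apoa5 included, so their folds carry this limit too.

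**Figure D2:**
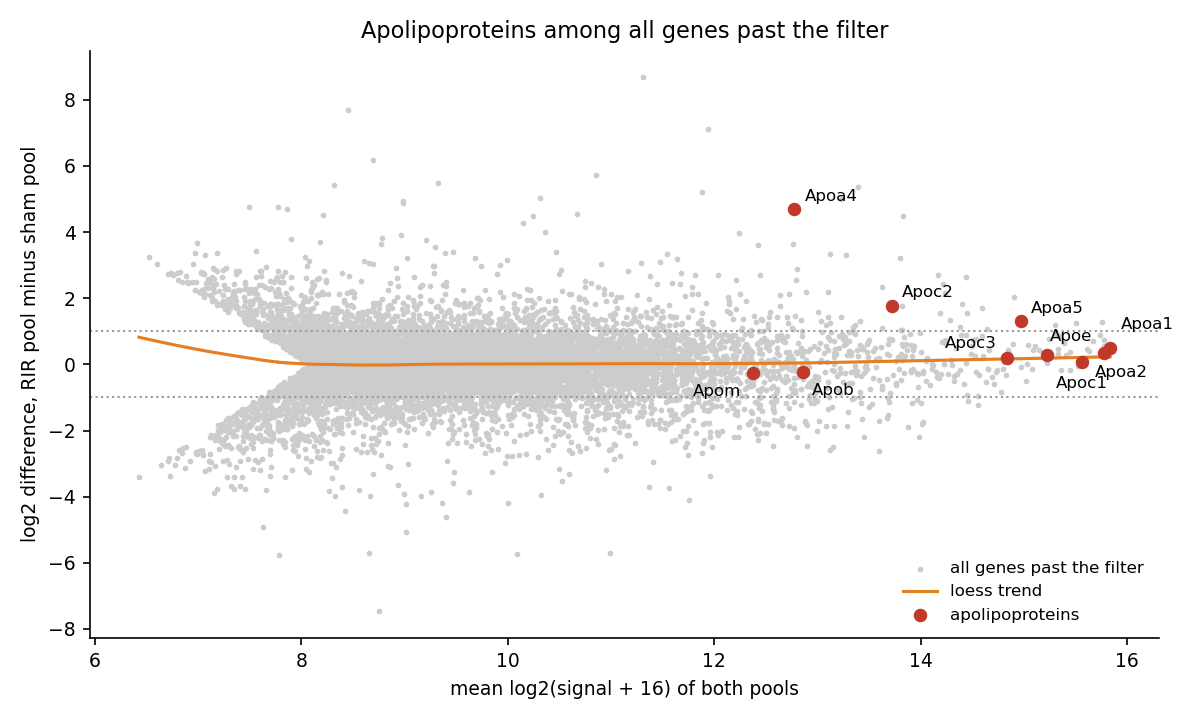
Log2 difference, RIR pool minus sham pool (vertical), against the mean log2(signal + 16) of both pools (horizontal) for 13117 genes in grey, with the 10 apolipoproteins in red, the loess trend as an orange line and 2-fold as dotted lines. Apoa4, Apoc2 and Apoa5 stand above 2-fold, and Apoa1, Apoa2, Apoc1, Apoc3 and Apoe lie at the bright end within 0.49 of 0.

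Apolipoprotein genes form a cluster on chromosome 9 in the order Apoa1, Apoc3, Apoa4 and Apoa5, and their differences were unequal. By 1436504_x_at, the RIR-to-sham ratio of Apoa4 was 22.6 times that of its neighbour Apoc3 and 18.3 times that of Apoa1. That probe set had the smaller fold of Apoa4, 25.7 against 76.6 by 1417761_at. The ratio of Apoa5 was 2.18 times that of Apoc3. Of the 3 measured protein-coding genes on each side, none of the 6 was past 2-fold, with log2 differences from -0.29 for Bud13 to 0.97 for Sidt2, a membrane protein of lysosomes. Zpr1, a zinc finger protein gene next to Apoa5, was at 0.86. As deposited, the differences past 2-fold in this stretch were those of Apoa4 and Apoa5. However, Apoa5, at 1.31, was less than the SD of 0.72 above Sidt2 and Zpr1. By quantile normalization Apoa5 was at 0.94, so the threshold does not set it apart from these neighbours.

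A second cluster on chromosome 7 holds Apoc2, Apoc4, Apoc1 and Apoe in that order. Apoc4, a minor apolipoprotein of VLDL, had a signal of 17746 in the RIR pool, against 21710.2 in the sham pool (log2 difference -0.29). The RIR-to-sham ratio of Apoc2 was 4.19 times that of Apoc4, its direct neighbour. A further annotated gene, Gm44805, spans both, so their probe sets may read it too. On the outer side of Apoc2, Clptm1, a membrane protein gene, had 5656 in the RIR pool, against 2378 in the sham pool, which is 2.37-fold higher (1.24). The 4 other measured neighbours lay between 0.04 for Nectin2 and 0.61 for Tomm40, and Relb, with 58.9 in the RIR pool and 156.5 in the sham pool, was below the median of each array and has no fold. Of the other members, Apoa2 lies on chromosome 1, Apob on chromosome 12 and Apom on chromosome 17.

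**Figure D3:**
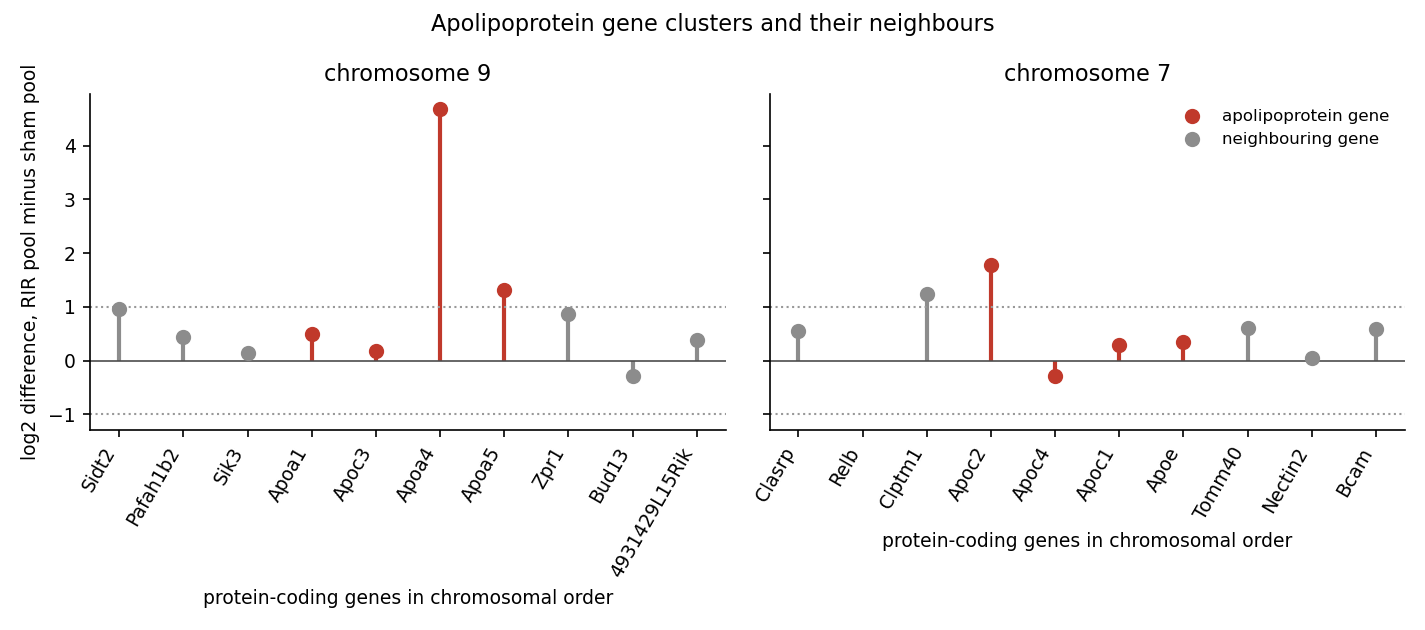
Log2 difference, RIR pool minus sham pool (vertical), of the apolipoprotein genes (red) and the 3 measured protein-coding genes on each side (grey) in chromosomal order, with 2-fold dotted. Relb has no point because both its signals were under the array median. Apoa4 and Apoa5 stand above 2-fold on chromosome 9, and Apoc2 and its neighbour Clptm1 do so on chromosome 7.

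**Figure D4:**
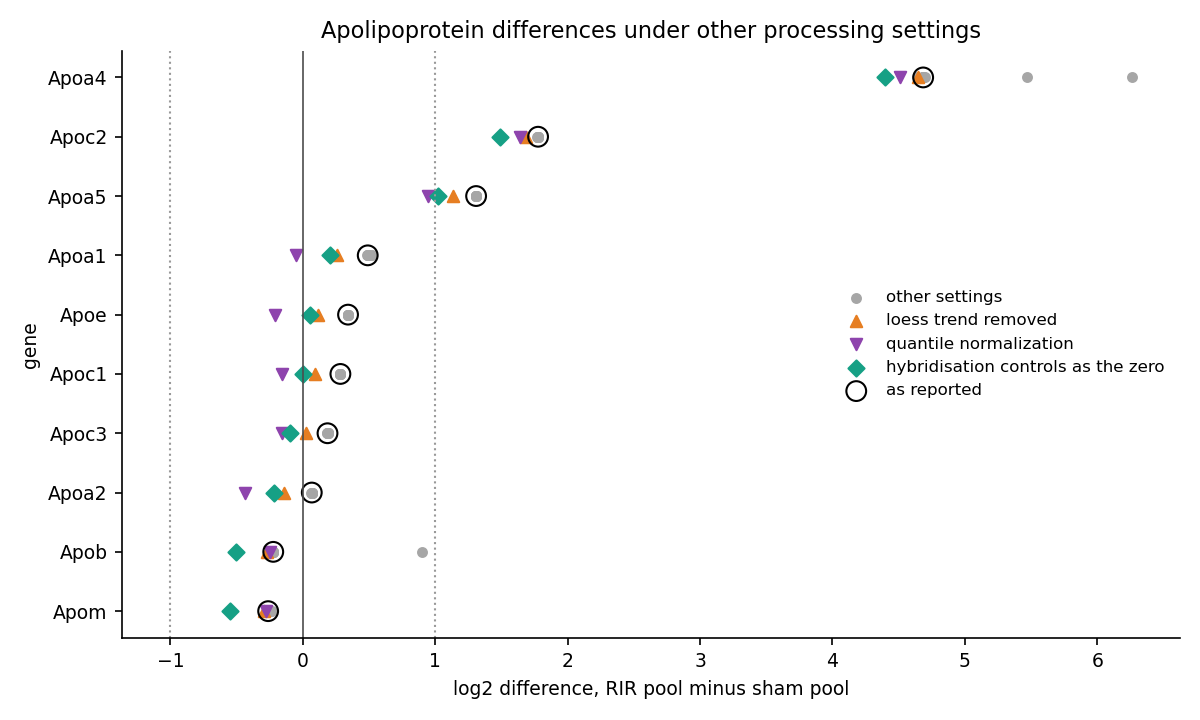
Log2 difference, RIR pool minus sham pool (horizontal), of each apolipoprotein as reported (open circle), with 3 scaling alternatives (coloured) and the remaining settings (grey), and 2-fold dotted. Apoa4 and Apoc2 stay above 2-fold in every setting, Apoa5 crosses it by quantile normalization at 0.94, and the grey point of Apob at 0.90 is the mean of its probe sets.

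Regulators of apolipoprotein transcription had a median of -0.29, and 11 of the 30 past the filter had a positive difference. Past 2-fold, 1 of the 30 was higher and 6 were lower, beside 8.71% and 9.59% of all genes. The 1 higher was lost with probe sets averaged or with the hybridisation controls as the zero. Creb3l3 had a signal of 12417 in the RIR pool, against 7930.3 in the sham pool (0.65). Hnf4a, the hepatocyte nuclear receptor, was at -0.06, and Ppara, the fasting receptor of fatty acids, at -0.31. Foxo3 (-1.80), the bile acid receptor Nr1h4 (-1.59) and the glucose-responsive factor Mlxipl (-1.37) were the lowest. Usf1 (0.68) and Prox1 (1.24) were above Creb3l3, although the 2 probe sets of Prox1 differed in sign.

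Other known targets of CREB3L3 were split. Of 9 past the filter, 4 were higher and 2 lower past 2-fold, beside 8.71% and 9.59% of all genes. The median was 0.76. With probe sets averaged, 1 was lower. Cidec, which enlarges lipid droplets, had 4291 in the RIR pool, against 79.7 in the sham pool, under the array median, so it was at least 15.8-fold higher. Apcs, serum amyloid P, was at 3.32 and Insig2, a brake on lipid synthesis, at 2.12. Crp (-1.77), Pck1 (-1.18), an enzyme of gluconeogenesis, and G6pc (-0.19) were the lowest, and the fasting hormone Fgf21 was at 0.09.

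Genes of VLDL assembly and secretion had a median of -0.30 over 22 members. Past 2-fold, 1 was higher and 5 were lower, beside 8.71% and 9.59% of all genes. Svip was among the 5 lower by its measured signals though not by its bound. Taking the least different probe set of each gene, 3 were lower, and with probe sets averaged 2 were higher. Mttp, which loads lipid onto Apob protein, had 7685 in the RIR pool, against 5917 in the sham pool (0.38). Surf4, a cargo receptor that carries lipoproteins out of the endoplasmic reticulum, had 11649 in the RIR pool, against 4257 in the sham pool (1.45), with all 5 probe sets higher. P4hb, the partner subunit of Mttp, was at 0.91 and Pla2g12b at 0.80. Svip had a signal of 44.4 in the RIR pool, under the array median, against 340.1 in the sham pool, so it was at least 1.32-fold lower. The lipases Ces1d (-1.36) and Ces1g (-1.30) were the next lowest. Apobec1, the enzyme that edits Apob transcripts, was at -0.62, and its cofactor A1cf at -0.08.

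Genes of HDL formation and remodelling had a median of -0.67 over 12 members. Past 2-fold, 1 was higher and 2 were lower, beside 8.71% and 9.59% of all genes. With the hybridisation controls as the zero the median was -0.95 and 5 were lower, beside 15.4% of all genes. Abca1, the pump that lipidates Apoa1 protein, had a signal of 15672 in the RIR pool, against 5836 in the sham pool, which is 2.68-fold higher (1.42), and all 3 of its probe sets were higher. Lcat, which esterifies cholesterol on HDL, had 6055 in the RIR pool, against 9591 in the sham pool (-0.66). The phospholipid transfer protein Pltp was at -0.84 and the HDL receptor Scarb1 at 0.08. Abcg1 (0.35) and Bmp1 (0.25) were the next highest after Abca1, and Lipg (-1.41), Gpld1 (-1.40) and Pon3 (-0.89) were the lowest.

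Genes of lipoprotein lipolysis and uptake had a median of -0.01 over 15 members. Past 2-fold, 2 were higher and 2 were lower, beside 8.71% and 9.59% of all genes. The 2 lower were 0 when probe sets of a gene were averaged, and the 2 higher were 1 under each of the 4 other scalings. Sdc1, a heparan sulphate receptor of remnants, had 10329 in the RIR pool, against 3434 in the sham pool (1.58), and its 4 probe sets ran from 0.37 to 1.58. Angptl4, an inhibitor of lipoprotein lipase, had 7829 in the RIR pool, against 3905 in the sham pool (1.00), on the threshold itself. Lpl itself was at 0.19, Lsr at 0.61 and Lrp1 at -0.44. Vldlr was under the array median in the RIR pool, with 215.4 there, against 262.4 in the sham pool, by the probe set that reads it here, whereas its other probe set was at 1.52, so no direction is given for it. Lmf1 (-1.35), Lrpap1 (-1.31) and Mylip (-0.61) were the lowest, but another probe set of Lmf1 was at -0.10 and another of Lrpap1 at 0.23.

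**Figure D5:**
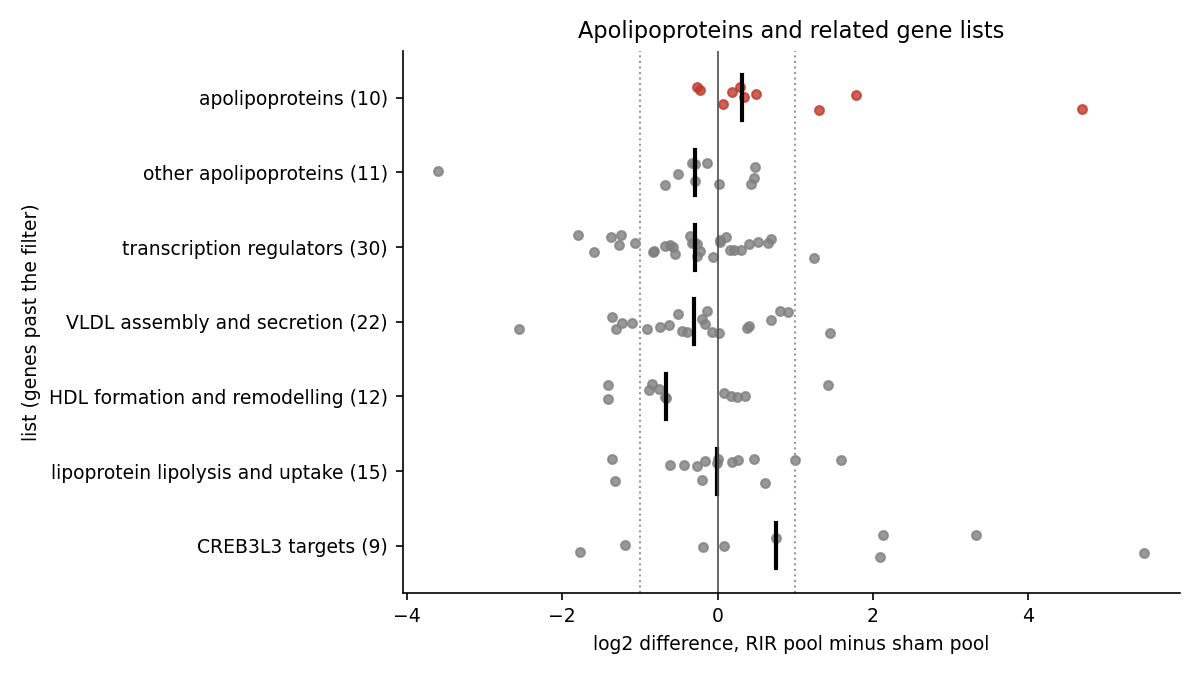
Log2 difference, RIR pool minus sham pool (horizontal), of the genes past the filter in each list, 1 dot per gene, with the list median as a black bar, 2-fold dotted and apolipoproteins in red. The median is 0.31 for the 10 apolipoproteins, -0.67 for HDL formation and remodelling and 0.76 for CREB3L3 targets.

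Markers of liver cells and of other tissues were read in both pools too. Over all genes, 8.71% were higher and 9.59% lower past 2-fold. The intestine is the other main source of Apoa4 and Apob, and of 13 enterocyte markers with a probe set, 8 were under the array median in both pools. The summed signal of all 13 was 5862 in the RIR pool and 5287 in the sham pool, higher in the RIR pool only through Fabp2. Vil1, villin of the brush border, had 20.2 in the RIR pool and 15.2 in the sham pool. Fabp2, a fatty acid carrier that the list counts as intestinal, had 3029 in the RIR pool, against 1516 in the sham pool (0.99), and Cdx2, under the array median in the RIR pool, was at least 1.55-fold lower. Over the 5 past the filter the median was -0.50, with 0 higher past 2-fold and 1 lower, Cdx2, whose bound does not reach 2-fold. Of 11 pancreatic acinar markers, 9 were higher and none lower past 2-fold, and 7 of the 9 were also past it by their bounds, with a summed signal of 15136 in the RIR pool and 5689 in the sham pool. Kupffer cell markers, from macrophages that also make Apoe, had 2 of 13 lower and none higher past 2-fold (median -0.29, and 1 higher with probe sets averaged), with summed signals of 11796 in the RIR pool and 16311 in the sham pool. Hepatocyte markers had 1 of 11 past 2-fold in each direction, with a median of 0.32, whereas by quantile normalization 0 were higher and 2 lower, with a median of -0.13, and kidney tubule markers had none of 7 past 2-fold (median 0.01, and -0.27 with the hybridisation controls as the zero). No marker signal was at 0 in either pool, and the part of these tissues in the apolipoprotein differences was not tested.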

How the data were processed

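Liver RNA of 2 pools was measured, RIR and sham, grouped by the treatment label. Per the labels' protocols, Trizol RNA was used, and 6 ug of it went into biotinylated cRNA. The deposited values are a linear array intensity per probe set, scaled by the authors, since both arrays have the same mean of 500.0 once 2% of values is trimmed from each tail. The summarising software, background handling and genome build remain not given in the sources used here. Per the platform annotation, 34945 probe sets name 1 gene, 932 several and 9160 none, and only the first kind was used. For 34741 of them, the Entrez ID was found in RefSeq and the RefSeq symbol was used, whether or not it differed. The array gives no depth, and its number of 2 limits the precision.

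Computed from these values were log2(signal + 16) and its difference, RIR minus sham. A probe set passed when its brighter signal reached that array's median, which left 21003 probe sets and 13117 genes. A gene was read by its passing probe set with the highest mean log2 signal. No test was run, and 2-fold was the threshold. A gene under the median on 1 array has a bound against that median. Named were all apolipoproteins, up to 3 highest and 3 lowest of each related list, those past 2-fold first, and a fixed panel. Members and lists were chosen with earlier results of these data known, and the promoter motifs after the differences were seen. Alternatives were scaling (median, loess with span 0.3, quantile, 18 hybridisation controls), pseudocounts of 1 and 64, other filters, other choices among probe sets, probe sets with a suffix left out, and 1.5-fold and 3-fold. The steps were tested on simulated data. Python 3.11.15, statsmodels 0.14.6 and matplotlib 3.10.9 were used.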

Additional observations from a re-analysis of the deposited data

How the results depend on the processing

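With 14 alternatives, the count of apolipoproteins at least 2-fold higher was 2 or 3 and that at least 2-fold lower was 0, and the 2 cases of a count of 2 were quantile normalization and a 3-fold threshold. The median over the 10 ranged from -0.16 to 0.43. Of 157 values compared, 154 moved by less than the SD of 0.72 between probe sets of a gene, or by no more than 1.5 times for counts. The 3 exceptions were Apoa4 at 5.47 and Apob at 0.90 when probe sets of a gene were averaged, and Apoa4 at 6.26 with suffixed probe sets left out. That last setting leaves Apoa1, Apoa2 and Apoe with no probe set, so they have no value there. Over all genes, 756 were higher and 2016 lower past 2-fold with the hybridisation controls as the zero, against 1143 and 1258 as reported. All 18 of these controls were higher in the RIR pool, with a median of 0.28. For the related lists and markers, 270 of 297 values stayed within those limits, and 27 moved, all of them counts. These are values of whole lists, and single genes can still change sign with the probe set read, as Prox1 and Lrpap1 do. No paired analysis was possible because each group has 1 pool. For the same reason no pool could be left out.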

Other observations

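Other genes listed beside the apolipoproteins gave 1 large difference. Not all of them encode apolipoproteins, and Apobr is a receptor. Apol7a, of the apolipoprotein L family, which is not a component of lipoproteins in the way of the genes above, had a signal of 187.4 in the RIR pool, under the array median, against 2446 in the sham pool, so it was at least 9.11-fold lower by its single probe set. Of the 11 such genes past the filter it was the only one past 2-fold, beside 8.71% of all genes higher and 9.59% lower. The list median was -0.28. Apon (0.48), Apold1 (0.46) and Clu (0.44), the secreted chaperone clusterin with all 4 probe sets higher, were the highest. Apod (-0.68) and Apobr (-0.51) followed Apol7a on the lower side. Apoh, a plasma protein that binds phospholipid, was at 0.01, with signals of 33586 in the RIR pool and 33282 in the sham pool.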
